A study of Mus musculus with 6 samples.

Results

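The genes described here are 55 genes of nucleotide excision repair, base excision repair, mismatch repair and the DNA damage checkpoint, read in the mouse ovarian cancer line ID8. They were taken by gene symbol, whatever their values, from the 53465 genes of the deposited count table. Of the 55, 11 belong to nucleotide excision repair, 14 to base excision repair, 5 to mismatch repair and 25 to the checkpoint, and 51 were abundant enough to be tested. ID8 derives from mouse ovarian surface epithelium and is widely used as a model of epithelial ovarian cancer. Of 6 RNA-seq libraries, 3 came from ID8 cells carrying a non-targeting guide (sgNC, labelled WT) and 3 from ID8 cells carrying a guide against Nat10 (sgNat10, labelled KO), and both lines were stably transfected. Nat10 encodes the enzyme that places N4-acetylcytidine on RNA, and the study asked how the transcriptome, DNA damage response genes among it, differs once it is depleted. The replicates carry the numbers 4, 5 and 6 in both groups, and no other treatment is given. Whether a line is 1 clone, what drives the guide and whether the libraries are separate cultures is not stated by the labels, so a p-value here speaks of the scatter among these libraries alone, which may be technical, and line and guide cannot be told apart.

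Nucleotide excision repair cuts out a short stretch of the damaged strand around a bulky lesion such as a cisplatin adduct, after the lesion is found either across the whole genome or where it stalls RNA polymerase. Base excision repair removes single damaged bases with a glycosylase and then incises, fills and seals the strand, while mismatch repair corrects replication errors through MutS and MutL heterodimers. The checkpoint kinases Atr and Atm sense single-stranded DNA and double-strand breaks and act through Chek1, Chek2 and Wee1 to hold back the cell cycle.

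The libraries held between 1687466 and 3126208 counts assigned to genes. Each KO-labelled total (2234305 to 3126208) was above each WT total (1687466 to 2148715). Larger totals did not always go with more genes sampled. Per KO-labelled library, 7250 to 7565 genes had 10 or more counts. For WT this number was 8183 (replicate 4), 8159 (replicate 5) and, below the KO-labelled range, 7012 (replicate 6). A count of 0 in a KO-labelled library is therefore not read as coming from better sampling. Levels are given in CPM, counts scaled to a common library size after TMM normalization, on which 1 count was worth 0.310 to 0.608 CPM. Nat10 mRNA showed no drop with its guide: it stood at 102, 64.0 and 169 CPM in WT replicates 4, 5 and 6 and at 123, 56.9 and 138 CPM in the KO-labelled ones, with a log2 fold change of -0.07 ± 0.48 (SE; 95% interval -1.09 to 0.94; edgeR adjusted p = 0.99996), so every direction below is between libraries as labelled. Counts over genes were not spread smoothly down to 1: among genes with 5 or more counts, the most frequent count was 14, 21 and 31 in WT replicates 4 to 6 and 44, 46 and 59 in the KO-labelled libraries. What gives rise to this peak was not tested. Across all 8200 tested genes, 33 passed an adjusted p under 0.05 in the quasi-likelihood test of edgeR (p-values adjusted by Benjamini-Hochberg), 15 higher and 18 lower in the libraries labelled KO. Of 8 markers of ovarian surface epithelium or mesothelium, 7 were tested and 3 passed: Msln, the surface protein mesothelin, was higher (log2 fold change 1.05) and the keratins Krt18 (-1.74) and Krt19 (-0.92) were lower. The calls were not stable to leaving out 1 library: Krt18 kept its call only without WT replicate 4 (adjusted p up to 0.216 otherwise), Msln lost it without WT replicate 5 or 6 or KO-labelled replicate 4 or 5 (up to 0.108), and Krt19 without WT replicate 5 or 6 (up to 0.0755). Leukocyte markers were near absent (0 of 6 tested, summed 0 to 14.5 CPM in WT against 0 to 0.931 CPM in KO-labelled libraries, with Ptprc at or near 0), as were endothelial ones (0 of 4 tested, summed 0 to 6.0 and 0 to 1.86 CPM). Of 4 fibroblast markers 2 were tested, and their sum, most of it Dcn, was 752 to 780 CPM in WT against 967 to 1325 CPM in KO-labelled libraries. Krt8 (-2.42), the urothelial plaque gene Upk1b (0.80), Col1a1 (-3.44) and Dcn (0.67) had an unadjusted p under 0.05 without passing the test. The part of these marker differences in the values below was not tested.

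None of the 51 tested repair and checkpoint genes passed the test: 0 did at an adjusted p under 0.05, where 0.402% of all tested genes did. The median log2 fold change of the 51 was -0.15, against -0.02 for all tested genes. Below 0 were 32 of them, or 62.7%, against 51.0% of all tested genes, but this number depended on the scaling, with 28 below 0 when libraries were scaled by their totals and 34 under limma-voom, which moved the median of all genes by 0.11 and -0.12. Before adjustment, 2 genes had a p under 0.05, the histone gene H2afx and the clamp subunit Rad1, both lower in the libraries labelled KO, where 6.49% of all tested genes reached that in either direction and 3.79% on the lower side. In 8 of the 51, or 15.7%, the 3 KO-labelled libraries and the 3 WT libraries did not overlap, where 14.9% of all tested genes did not overlap. Lower in every KO-labelled library were 6 of them, Mpg, Apex1, Xrcc1, Pms1, Rad1 and H2afx, and higher were 2, Ercc6 and Atr, against 7.93% and 6.94% of all tested genes on those sides. These shares are near the background, so the number of separated genes is not a result about repair genes. The separation was read in CPM after TMM scaling. As shares of all counts without that scaling, the groups of Apex1, Xrcc1 and Pms1 overlapped. Relative to the most frequent count of each library, the groups of Ercc6, Atr and Apex1 overlapped. Rad1 and Mpg reached 10 counts in WT libraries only, so they passed the count filter through the group in which they were higher. Their separation, and the p of Rad1, are therefore given as description and not as support for a difference. Because bulk RNA was measured, fewer cells expressing a gene and less RNA per cell cannot be told apart.

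**Figure D1:**
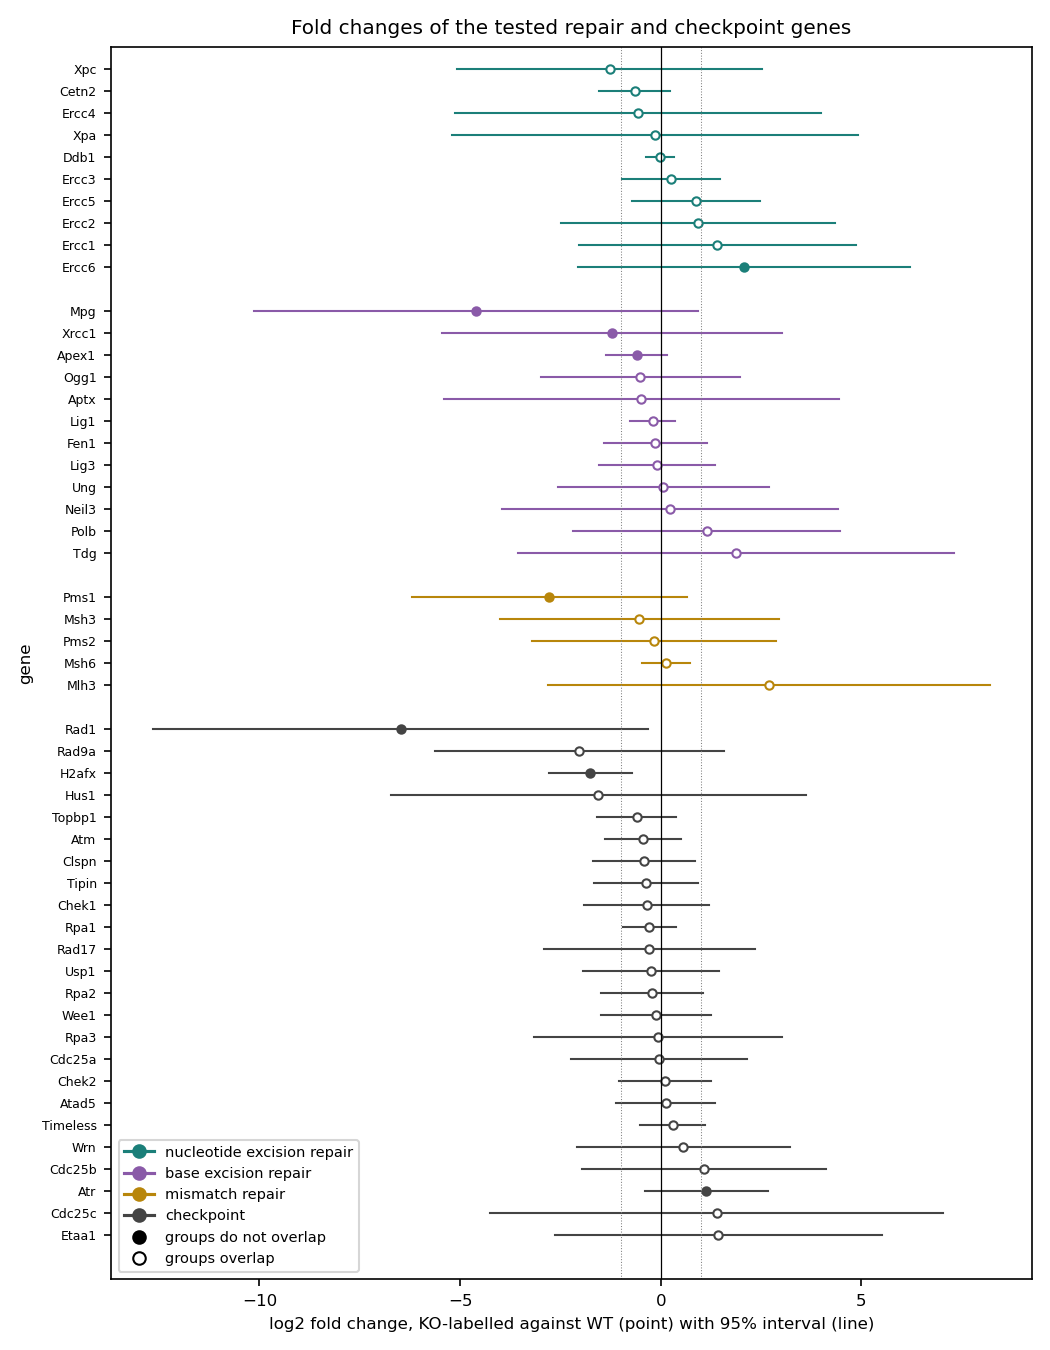
Log2 fold change of the 51 tested genes, KO-labelled against WT libraries (x axis), with 95% intervals from edgeR, ordered by log2 fold change within each branch. Filled points mark genes whose groups did not overlap. The intervals of Rad1 (-12.65 to -0.32) and H2afx (-2.78 to -0.72) are those that leave out 0, and 4 genes, Ddb1, Lig1, Msh6 and Rpa1, have an interval inside ±1.

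Nucleotide excision repair was dominated at the mRNA level by Ddb1, which with Ddb2 recognises ultraviolet lesions and is also the adaptor of the CUL4 ubiquitin ligases. Ddb1 (chromosome 19, 10605327 to 10629819, plus strand, mm10) stood at 1443, 1319 and 1431 CPM in WT and at 1548, 1380 and 1234 CPM in KO-labelled libraries, means of 1398 ± 68.5 and 1387 ± 157 CPM (SD, n = 3 per group, as for all means below). The groups overlapped, and the interval of its log2 fold change, -0.36 to 0.34 around -0.01 ± 0.16 (SE), stays inside ±1; its sign turned under several settings, reaching 0.10 with library totals. Xpc, the sensor of helix distortion in the whole genome, had 22, 0 and 179 counts in WT and 0, 72 and 56 counts in KO-labelled libraries. WT replicate 6 alone was high, and the fitted log2 fold change of -1.27 ± 1.78 (edgeR adjusted p = 0.99996) became 1.26 without it. Its binding partner Cetn2 stood at 175 ± 35.3 CPM in WT against 112 ± 54.8 CPM in KO-labelled libraries, with a log2 fold change of -0.64 ± 0.41 with overlapping groups.

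Ercc6, the CSB ATPase that binds stalled RNA polymerase II and starts transcription-coupled repair, was 1 of the 2 genes higher in every KO-labelled library. It had 18, 1 and 10 counts in WT and 76, 50 and 70 counts in KO-labelled libraries, or 5.74 ± 5.22 and 24.3 ± 4.67 CPM. The groups were apart in CPM, but the WT counts were few and unequal and the fitted log2 fold change was 2.07 ± 1.94 (edgeR adjusted p = 0.99996). Relative to the most frequent count of each library, Ercc6 stood at 1.29, 0.048 and 0.323 times in WT. In KO-labelled libraries it stood at 1.73, 1.09 and 1.19 times, so on that scale the groups overlapped. Ercc8, the CSA partner of the same step, had 10 counts in 1 WT library, 88 in 1 KO-labelled library and 0 in the other 4, and was not tested.

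The later steps of nucleotide excision repair gave overlapping groups throughout. The TFIIH helicases that open the helix had log2 fold changes of 0.93 ± 1.6 (Ercc2) and 0.26 ± 0.57 (Ercc3), and Xpa, which verifies the damage, -0.15 ± 2.37. Exons of other genes cover 42.7% of the Ercc2 exons, so its reads may not be separated from theirs. Of the incision enzymes, Ercc5, which cuts on the 3′ side, stood at 29.7 ± 6.83 and 54.6 ± 24.4 CPM in WT and KO-labelled libraries (log2 fold change 0.88 ± 0.74). Ercc1 (1.41 ± 1.62) and Ercc4 (-0.58 ± 2.13), the subunits of the nuclease that cuts on the 5′ side, had point estimates on opposite sides of 0, each with an interval several units wide. Over the 10 tested genes of the branch, 5 lay above and 5 below 0 with a median log2 fold change of 0.12, which turned to -0.23 under limma-voom and was 0.88 without WT replicate 6. None had an unadjusted p under 0.05.

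In base excision repair 12 genes were tested and none passed or had an unadjusted p under 0.05. Of the 12, 8 lay below 0 and 4 above, with a median log2 fold change of -0.17. This median was -0.37 without WT replicate 6, -0.46 and -0.39 without KO-labelled replicates 4 and 5, and -0.065 with library totals. Among the glycosylases, Mpg, which removes alkylated purines, had 49, 65 and 13 counts in WT and 7, 0 and 0 counts in KO-labelled libraries, or 23.3 ± 13.7 and 0.910 ± 1.58 CPM. The groups did not overlap, the log2 fold change was -4.60 ± 2.59 (edgeR adjusted p = 0.953), and its WT counts lay between 0.419 and 3.50 times the most frequent count of their library. Only WT libraries reached 10 counts, so Mpg passed the count filter through the group in which it was higher. Exons of the neighbouring gene Nprl3 cover 35.7% of the Mpg exons (chromosome 11, 32226505 to 32232700), and since the labels do not say whether counting used strand, reads of the 2 genes may not be separated. Tdg, the thymine and 5-formylcytosine glycosylase, had 12, 1 and 0 counts in WT and 25, 3 and 58 counts in KO-labelled libraries (log2 fold change 1.88 ± 2.54), with overlapping groups. Ung, Ogg1 and Neil3, for uracil, 8-oxoguanine and oxidised bases in single-stranded DNA, had log2 fold changes of 0.07, -0.51 and 0.24, and Mutyh and Nthl1 had at most 4 and 15 counts in any library and were not tested.

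Apex1, the endonuclease that nicks the strand at the abasic site left by a glycosylase, was the best measured of the separated base excision genes. It stood at 161, 263 and 134 CPM in WT and at 128, 111 and 129 CPM in KO-labelled libraries, means of 186 ± 68.1 and 123 ± 9.95 CPM. In CPM all KO-labelled libraries lay below all WT ones, but WT replicate 6 was close to the highest of them. As shares of all counts without TMM scaling, the groups overlapped. The log2 fold change of -0.60 ± 0.35 (95% interval -1.35 to 0.16) did not pass the test (edgeR adjusted p = 0.981) and was -0.26 without WT replicate 5. Exons of Pip4p1 overlap 61.7% of the Apex1 exons (chromosome 14, 50924968 to 50927139), with the same limit on strand.

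Among the gap filling and sealing genes, Xrcc1, the scaffold that holds Polb and Lig3, had 38, 35 and 44 counts in WT and 0, 27 and 54 counts in KO-labelled libraries. In CPM its groups did not overlap (17.5 to 25.4 against 0 to 16.8), but KO-labelled replicate 4 alone was at 0, and the log2 fold change was -1.22 ± 1.98 (edgeR adjusted p = 0.99996). Without TMM scaling the Xrcc1 groups overlapped. Lig1, the replicative DNA ligase that also seals long patches, stood at 342, 245 and 278 CPM in WT and at 238, 272 and 241 CPM in KO-labelled libraries. Its groups overlapped and the interval of its log2 fold change, -0.76 to 0.35 around -0.20 ± 0.26, stayed inside ±1. Polb, the gap-filling polymerase (1.15 ± 1.56), Lig3 (-0.10 ± 0.68), the flap nuclease Fen1 (-0.13 ± 0.60) and Aptx, which clears abortive ligation ends (-0.48 ± 2.31), had overlapping groups, and 84.2% of the Fen1 exons lie under exons of other genes.

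Mismatch repair was measured with 5 genes, all tested, of which only Msh6 had an interval inside ±1. Msh6, a recognition subunit for single mismatches, stood at 288, 352 and 291 CPM in WT and at 302, 482 and 235 CPM in KO-labelled libraries. The WT values lay inside the KO-labelled range, and the log2 fold change was 0.13 ± 0.28 with an interval of -0.48 to 0.74; it was -0.20 without KO-labelled replicate 5. Msh3, a recognition subunit for larger loops, had a log2 fold change of -0.53 ± 1.62. Its mean of 20.2 CPM lay within the range of the MutL homologues, 12.0 to 29.7 CPM. The MutL homologues were much less even than Msh6: Pms1 had 61, 47 and 164 counts in WT and 0, 52 and 1 counts in KO-labelled libraries. In CPM its groups did not overlap, 51.8 ± 37.9 against 7.53 ± 12.8, but KO-labelled replicate 5 came close to the lowest WT library and the log2 fold change was -2.78 ± 1.6 (edgeR adjusted p = 0.968). Without TMM scaling the Pms1 groups overlapped. Mlh3, the MutL subunit best known from meiotic crossing over, had 14, 2 and 0 counts in WT and 0, 129 and 24 counts in KO-labelled libraries (log2 fold change 2.70 ± 2.57), and its value was 0.26 without KO-labelled replicate 5 and 5.22 without WT replicate 4. Pms2, the endonuclease subunit of the main MutL dimer, stood at 24.8 ± 1.69 and 22.0 ± 22.1 CPM, so its means were close while the KO-labelled libraries ranged from 1.55 to 45.4 CPM. The branch median of -0.17 became 0.08 without WT replicate 6, 0.33 without KO-labelled replicate 6 and -1.33 under limma-voom.

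**Figure D2:**
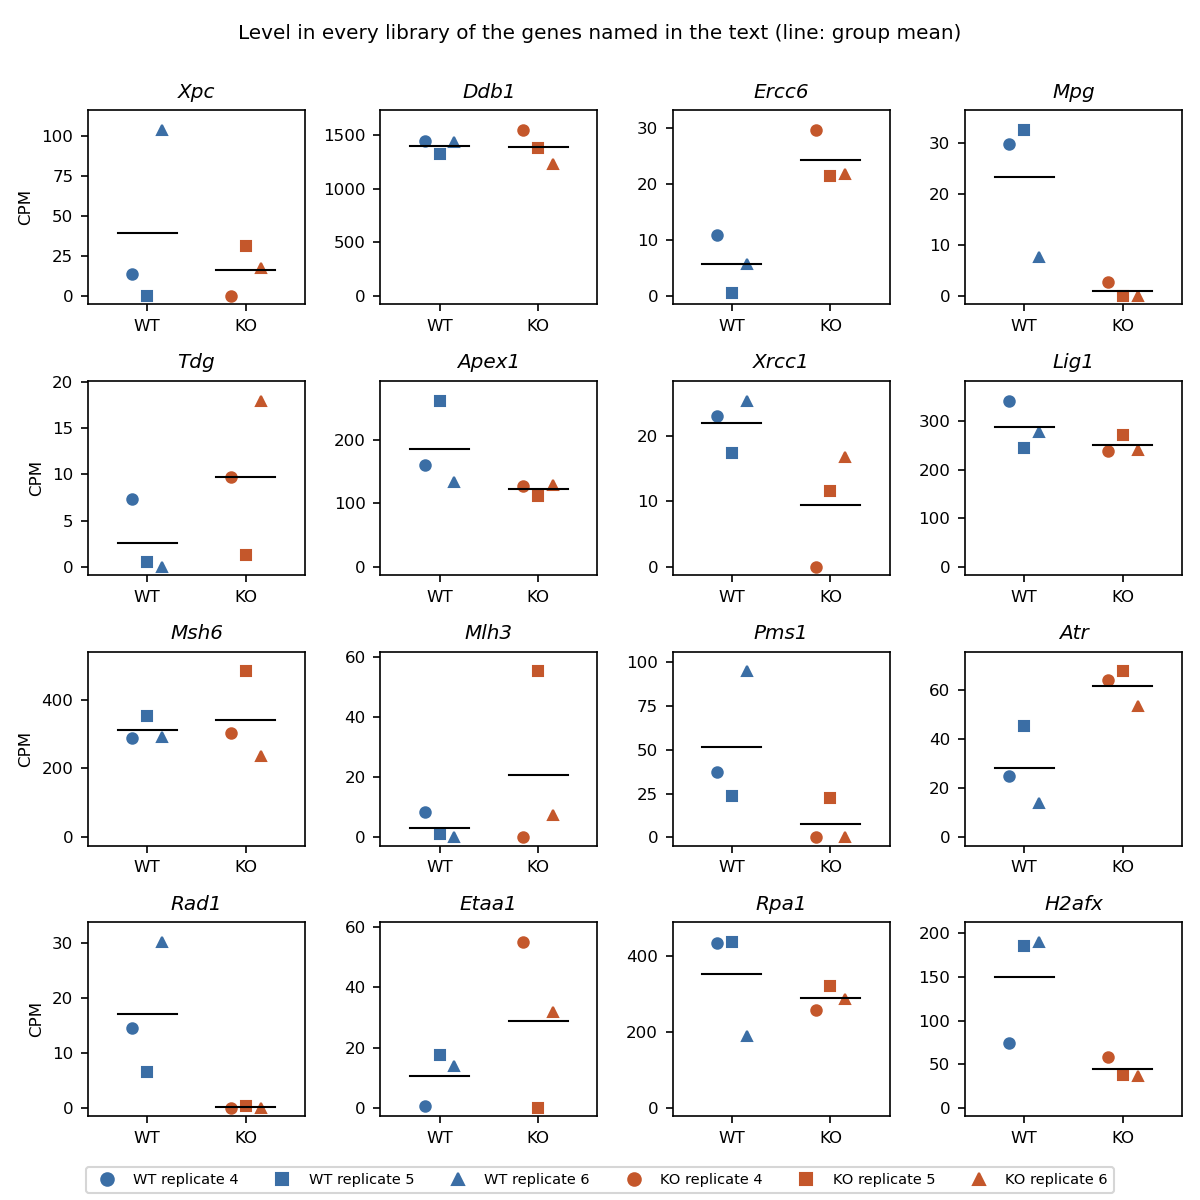
CPM in each library (points; marker shape gives the replicate number) and group means (lines) for the members named with values in every library, each on its own linear axis. H2afx, Atr and Apex1 show 2 separate groups above 10 CPM, whereas for Rad1, Mpg, Pms1, Mlh3 and Xpc at least 1 library of a group is at or near 0.

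In the checkpoint branch the damage kinases were all detected in every library. Atr, the kinase recruited to RPA-coated single-stranded DNA, had 41, 91 and 24 counts in WT and 164, 158 and 173 counts in KO-labelled libraries, or 24.9, 45.5 and 13.9 against 64.0, 67.7 and 53.7 CPM. In CPM the KO-labelled libraries were close to each other and all above the WT libraries, with means of 61.8 ± 7.25 and 28.1 ± 16 CPM. The Atr log2 fold change of 1.13 ± 0.72 (95% interval -0.40 to 2.67) did not pass the test (edgeR adjusted p = 0.99996). Relative to the most frequent count of each library, Atr stood at 2.93, 4.33 and 0.774 times in WT. In KO-labelled libraries it stood at 3.73, 3.43 and 2.93 times, so on that scale the groups overlapped. Its partner Atrip, which Atr needs to reach RPA, had 0 counts in every library. If every count is independent, a count of 0 allows up to 3 counts over the 6 libraries, or 0.222 CPM. This limit leaves out the spread between libraries and the peak in the counts. Etaa1, the activator of Atr that binds RPA directly, had 1, 35 and 24 counts in WT and 141, 0 and 103 counts in KO-labelled libraries (log2 fold change 1.44 ± 1.90). Atm, the kinase of double-strand breaks, had a log2 fold change of -0.44 ± 0.44, and the kinases Chek1 (-0.35 ± 0.73), Chek2 (0.11 ± 0.53) and Wee1 (-0.12 ± 0.64) had overlapping groups.

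The 3 subunits of the Rad9a-Rad1-Hus1 clamp, which is loaded at damaged DNA and lets Topbp1 switch on Atr, were all at 2 counts or fewer in KO-labelled replicate 4. That library had the most members at 0 counts, 12 of the 55, so this is not particular to the clamp. Rad1 (chromosome 15, 10486018 to 10499063, plus strand) had 24, 13 and 52 counts in WT and 0, 1 and 0 counts in KO-labelled libraries. Every KO-labelled library was at or next to 0. Only WT libraries reached 10 counts, so Rad1 passed the count filter through the group in which it was higher. The ratio of the 89 pooled WT counts to the 1 pooled KO-labelled count, each over its pooled library size, was 134. Its 95% counting interval, 23.5 to 5370, treats every count as independent, which the peak in the counts leaves in doubt. It also leaves out the spread between libraries, so it understates the uncertainty. The ratio was computed because the KO-labelled count was so low, so ratio and interval are description and not support for a difference. The fitted log2 fold change was -6.48 ± 2.88 (edgeR adjusted p = 0.709; DESeq2 adjusted p = 0.0634), and the WT counts were only 0.619 to 1.71 times the most frequent count of their libraries. Rad9a had 94, 84 and 18 counts against 2, 1 and 82, and Hus1 had 27, 24 and 29 counts against 0, 35 and 1, so in both genes 1 KO-labelled library lay within or above the WT range in counts while the others were near 0. Of the clamp loaders, Rad17 had a log2 fold change of -0.28 ± 1.23 and Atad5, which unloads the replication clamp, 0.13 ± 0.58.

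H2afx, the histone variant that is phosphorylated by Atm and Atr around breaks and so carries the γH2AX mark, had the smallest p of the 51. It is a single-exon gene on chromosome 9 (44334694 to 44336077, plus strand), and stood at 74.8, 185 and 190 CPM in WT and at 58.1, 38.1 and 36.9 CPM in KO-labelled libraries. The groups did not overlap, although WT replicate 4 lay nearer to the KO-labelled libraries than to the other WT libraries. The log2 fold change was -1.75 ± 0.48 (95% interval -2.78 to -0.72) with an adjusted p of 0.245 in edgeR and of 0.00796 in DESeq2, the only member past the threshold there and on the lower side, where DESeq2 placed 1.56% of all tested genes. Its counts were 8.79 to 17.6 times the most frequent count in WT and 1.93 to 3.39 times in KO-labelled libraries, and 10.2% of its exon length overlaps Gm44335, which has 0 counts. H2afx makes both polyadenylated and stem-loop mRNA, and libraries selected on poly(A) do not count the second.

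RPA, the trimer that coats single-stranded DNA, was led by its large subunit Rpa1, at 435, 437 and 190 CPM in WT against 259, 322 and 288 CPM in KO-labelled libraries. The groups overlapped because of WT replicate 6, and the log2 fold change was -0.29 ± 0.31 (95% interval -0.94 to 0.37); those of Rpa2 and Rpa3 were -0.22 ± 0.60 and -0.06 ± 1.45. The fork protein Timeless stood at 123 ± 8.44 and 151 ± 63.4 CPM, its partner Tipin at 59.1 ± 0.792 and 45.8 ± 17.1 CPM, and Clspn, which brings Chek1 to Atr, at 97.1 ± 42.5 and 73.2 ± 46.2 CPM and in all 3 genes the groups overlapped. Topbp1 had a log2 fold change of -0.60 ± 0.46 and overlapping groups. The Cdc25 phosphatases, which the checkpoint inhibits to stop the cell cycle, had log2 fold changes of -0.05 (Cdc25a), 1.07 (Cdc25b) and 1.39 (Cdc25c), each with a standard error above 1. The helicase Wrn (0.56 ± 1.24) and the deubiquitinase Usp1 (-0.23 ± 0.79) complete the branch, in which 16 of 24 tested genes lay below 0 and the median log2 fold change was -0.23. It was -0.12 without WT replicate 4, -0.11 without KO-labelled replicate 4 and -0.12 with library totals, which put 13 genes below 0 and 11 above. Usp1 is 1 of 6 of the 55 genes on chromosome 4, of which 5 were tested and none passed.

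**Figure D3:**
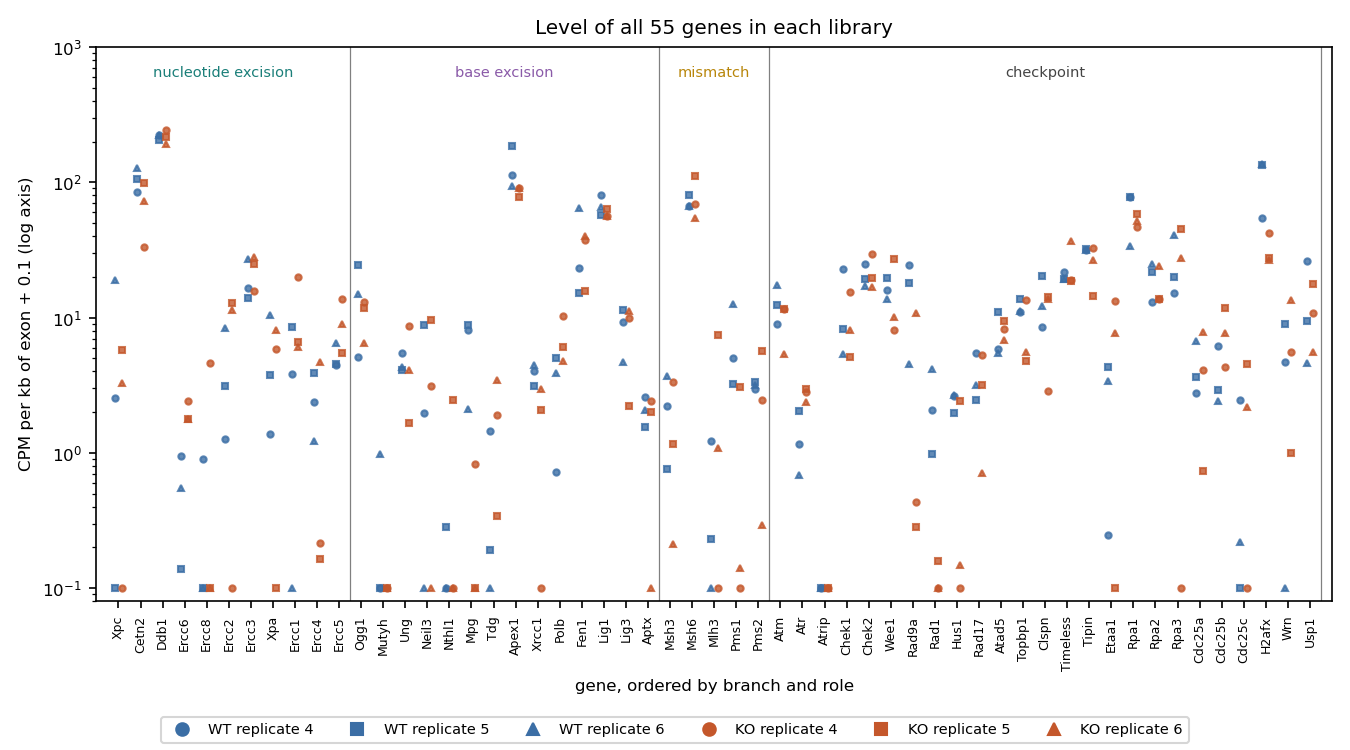
CPM per kilobase of exon plus 0.1 (y axis, log scale) of all 55 genes in each library, ordered by branch and role. Ddb1, Apex1, Cetn2, Msh6 and H2afx lie at the top, and points at 0.1 are libraries with 0 counts.

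Per kilobase of exon, Ddb1 led the 55 genes with a mean of 217 CPM per kilobase over the 6 libraries. The length used joins all annotated exons of a gene and is not that of the mRNA expressed here. Ranks between genes on this scale are therefore approximate. Apex1 followed at 109, Cetn2 at 87.3, Msh6 at 74.7, H2afx at 70.1, Lig1 at 63.1 and Rpa1 at 57.7 CPM per kilobase, of which H2afx stood at 108 in WT and 32.1 in KO-labelled libraries. The checkpoint kinases were lower, from Chek2 at 21.1 and Wee1 at 15.7 to Atr at 1.90 CPM per kilobase. The annotated exons of Atr span 23629 bases. Before division by length its mean was 44.9 CPM, close to Chek1 at 49.9 and Wee1 at 53.8 CPM. The clamp subunits lay at 9.61 (Rad9a), 1.56 (Hus1) and 1.16 CPM per kilobase (Rad1).

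Nucleotide excision repair summed to 1759 ± 152 CPM in WT against 1756 ± 114 CPM in KO-labelled libraries, and without Ddb1 to 361 ± 118 and 369 ± 46.7 CPM. Mismatch repair summed to 414 ± 35.6 and 406 ± 190 CPM. In base excision repair the sums were 754, 828 and 717 CPM in WT against 688, 577 and 637 CPM in KO-labelled libraries, which did not overlap. As shares of all counts without TMM scaling, however, the same sums overlapped: 0.0685% to 0.0772% in WT and 0.0603% to 0.0694% in KO-labelled libraries. Checkpoint genes summed to 1653, 1837 and 1418 CPM in WT and to 1361, 1362 and 1428 CPM in KO-labelled libraries, with WT replicate 6 inside the KO-labelled range.

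**Figure D4:**
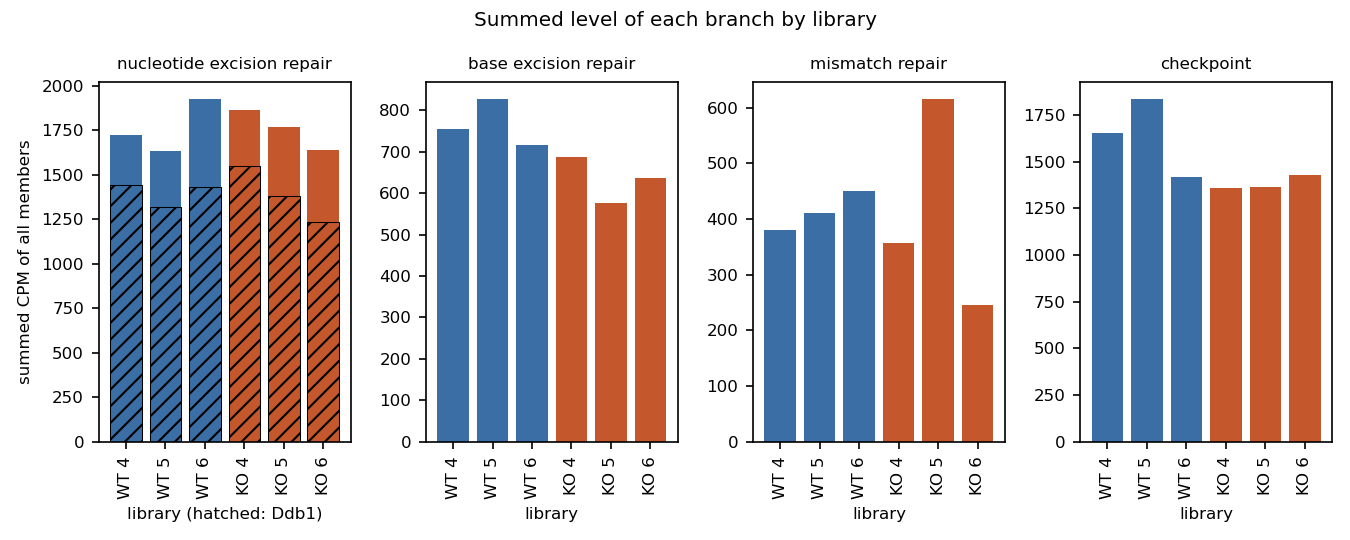
Summed CPM of all members of each branch (y axis, linear from 0) in each library, with Ddb1 hatched in nucleotide excision repair. Base excision sums run from 717 to 828 CPM in WT and from 577 to 688 CPM in KO-labelled libraries; the other branches overlap.

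How firmly the genes can be read depends on their level. Of the 51 tested genes, 26 had a mean under 30 CPM, and their median 95% interval was 7.88 log2 units wide. The 16 genes between 30 and 100 CPM had a median width of 2.67, and the 9 above 100 CPM one of 1.51. The corresponding medians over all tested genes were 8.83, 3.04 and 1.46, and 51.0% of the repair and checkpoint genes lay under 30 CPM against 43.0% of all tested genes. An interval inside ±1 was reached by 4 of the 51, or 7.84%, against 9.44% of all tested genes. In 18 of the 51, or 35.3%, libraries of the same group held at most 1 count and at least 10 counts, and 36.8% of all tested genes behaved alike.

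**Figure D5:**
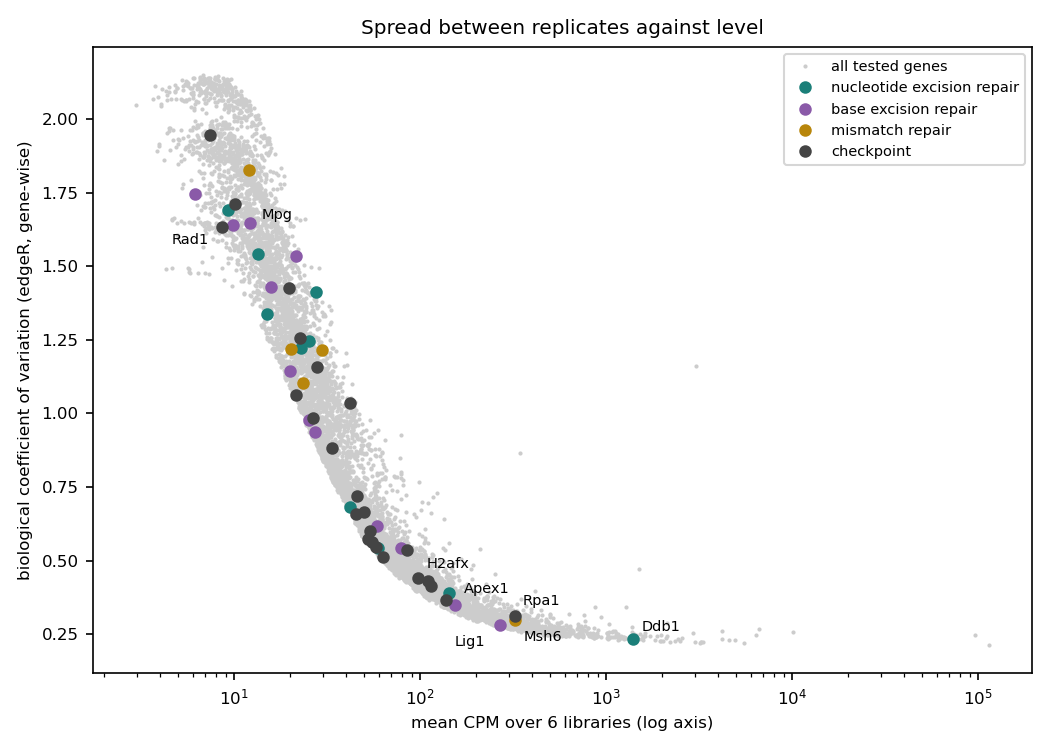
Gene-wise biological coefficient of variation from edgeR (y axis) against mean CPM over 6 libraries (x axis, log scale) for all tested genes (grey) and for the members by branch (colours). The median coefficient of the members was 1.38 under 30 CPM, 0.586 between 30 and 100 CPM and 0.348 above 100 CPM, close to 1.495, 0.650 and 0.338 for all tested genes.

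Libraries of the same group also differed in how many of the genes they held. At 0 counts were 3, 5 and 8 of the 55 genes in WT replicates 4, 5 and 6, and 12, 6 and 8 in the KO-labelled ones. Of all 53465 genes, most of them at 0 in any library, 44028, 44065 and 45200 were at 0 in WT. In the KO-labelled libraries 44821, 44984 and 44140 were. Whether the members differ from other genes in this was not tested. The median gene among the 55 stood at 3, 2.71 and 1.68 times the most frequent count of its library in WT and at 2.11, 1.37 and 1.69 times in KO-labelled libraries. The 55 genes together took 0.431% to 0.439% of all counts in WT and 0.407% to 0.452% in KO-labelled libraries, so that the groups overlapped.

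Other subunits and partners of the same pathways were read from a list of 45 genes chosen by role. Of these, 41 were tested and 0 passed the edgeR test, with 16 above and 25 below 0 and a median log2 fold change of -0.22. The 1 partner with an unadjusted p under 0.05 was Rad23b, which binds and stabilises Xpc. Rad23b stood at 632, 575 and 815 CPM in WT and at 159, 435 and 384 CPM in KO-labelled libraries. All KO-labelled libraries lay below all WT ones, with means of 326 ± 147 and 674 ± 126 CPM and a log2 fold change of -1.05 ± 0.31 (edgeR adjusted p = 0.329; DESeq2 adjusted p = 0.0268). Cdk1, the mitotic kinase that Wee1 inhibits and the most abundant of the list, stood at 813 ± 216 and 605 ± 200 CPM.

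Several checkpoint genes are transcribed mainly in S and G2 phase, so genes of the cell cycle are given beside them. All 22 genes of the proliferation list were tested and 0 passed in edgeR or in DESeq2 (1, Aurka, had an unadjusted p under 0.05), with 6 above and 16 below 0 and a median log2 fold change of -0.25. In 6 of the 22, or 27.3%, the groups did not overlap in CPM, each time lower in the libraries labelled KO. Of all tested genes 14.9% did not overlap, and 7.93% did so on the lower side. As shares of all counts without TMM scaling, however, the groups of Top2a, Mcm4 and Ccne2 overlapped, so the 27.3% depends on the scaling. Aurka, the spindle kinase, stood at 133, 152 and 157 CPM in WT and at 62.8, 84.8 and 62.0 CPM in KO-labelled libraries, means of 147 ± 12.8 and 69.9 ± 12.9 CPM (log2 fold change -1.07 ± 0.39; edgeR adjusted p = 0.524), and Top2a, which untangles replicated chromosomes, at 2027 ± 211 and 1648 ± 120 CPM. The summed list was 7292 to 9443 CPM in WT against 7175 to 7929 CPM in KO-labelled libraries. Its part in the values of the checkpoint genes was not tested.

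Promoter letters read by E2F factors, which drive the S phase genes, were looked for in the RefSeq promoters (250 bases before to 50 after the start, GRCm38.p6) of the 45 of 55 genes found in that table. The letters searched on both strands were TTTCCCGC, TTTGGCGC, TTTGCCGC and TTTCGCGC, of which TTTGGCGC and TTTCGCGC can overlap when read on opposite strands. At least 1 was present in 9 of the 45 genes, or 20.0%: Clspn, Chek2, Topbp1, Cdc25a, Atad5, Lig1, Msh3, Msh6 and Nthl1. In the whole table it was present in 704 of 27025 genes, or 2.60%. The table holds genes whatever their expression here, and the share among tested genes alone was not computed. These shares are therefore of unlike sets, and no enrichment is read from them. The 40-base windows around the letters that lie before the start are shown for checkpoint and mismatch repair genes, 5′ to 3′ on the strand of the gene, with the letters in capitals.
Chek2 (chr5:110839815-110839854, plus strand, 152 bases before the start): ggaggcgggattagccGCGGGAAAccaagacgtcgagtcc
Topbp1 (chr9:103305182-103305221, plus strand, 129 bases before the start): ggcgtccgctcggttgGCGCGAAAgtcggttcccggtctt
Cdc25a (chr9:109875496-109875535, plus strand, 67 bases before the start): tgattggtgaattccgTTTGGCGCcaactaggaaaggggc
Msh3 (chr13:92355182-92355221, minus strand, 202 bases before the start): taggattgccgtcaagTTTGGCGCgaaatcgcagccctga

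The Chek2 and Topbp1 windows hold the letters on the other strand, and in Msh3 a second match, to TTTCGCGC on the other strand, overlaps the one in capitals. Among the 8 tested genes with such letters, log2 fold changes ran from -0.60 (Topbp1) to 0.13 (Msh6) with a median of -0.13, and in 0 of them did the groups not overlap. The 33 tested genes of the table without the letters ran from -6.48 to 2.70 with a median of -0.15, and 7 had separate groups. With 14.9% of all tested genes separated, no contrast between genes with and without the letters is read from these small counts. The genes with the letters were also the more abundant, with a median of 74.2 against 25.3 CPM, so their narrower range cannot be set apart from the level dependence given above. A match describes the letters only and is not evidence of binding.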

How the data were processed

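Gene counts of 6 poly(A)-selected libraries (3 labelled WT, 3 labelled KO) were used as the authors deposited them, as whole-number counts per gene, not normalized. Per the submitters' processing notes, fastp, HISAT2 2.0.5, featureCounts 1.5.0-p3 and mm10 were used; for annotation, strand setting and filters: not given in the sources used here. Gene names, exon lengths and positions came from GENCODE M21 (mm10), which named 53360 of the 53465 genes. In R 4.3.3, genes with enough counts (filterByExpr, minimum count 10) were fitted with edgeR 4.0.16 (TMM, robust quasi-likelihood test, two-sided, Benjamini-Hochberg over 8200 genes, threshold 0.05) with no covariate. DESeq2 1.42.0, limma 3.58.1 (voom), other scalings and filters, a replicate block and leaving out each library were alternatives. The code of the fit was checked on negative binomial counts simulated from the fitted means and dispersions. Those were not made to hold the peak in the counts, so the check does not say how the fit behaves with it. The most frequent count of a library was read from the histogram of counts of 5 or more, smoothed over 9 counts. The members and lists were chosen with earlier results of these data known. Values in every library are given for members with an unadjusted p under 0.05 or groups that did not overlap, and for the most abundant member and the largest and smallest log2 fold change of each branch among members with 10 or more counts in at least 3 libraries; of the other lists, genes called or with an unadjusted p under 0.05 and the most abundant are named, with group means or log2 fold changes. Nucleotide windows came from RefSeq. Depth limits precision as given beside the values.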

Additional observations from a re-analysis of the deposited data

How the results depend on the processing

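Across all genes, 33 passed with edgeR, against 234 with DESeq2, 91 with no filter on low counts, 59 with a stricter filter, 101 when counts were divided by the most frequent count (chosen after seeing the data) and 6 to 29 when 1 library was left out, 6 without WT replicate 5, 6 without WT replicate 6, and 15, 20 and 18 without KO-labelled replicates 4, 5 and 6; the cause was not tested. Of the members, 0 passed under edgeR and its alternatives and 1, H2afx, under DESeq2. Of the partners, 1 passed with DESeq2, 1 with no filter, 1 with a stricter filter and 1 with counts divided by the most frequent count. The adjusted p of H2afx ran from 0.00796 to 0.907 over the alternatives, with a log2 fold change of -2.08 to -1.55 when 1 library was left out. The mismatch repair median was -1.33 under limma-voom, and the nucleotide excision median was 0.072 to 0.88 with 1 library left out. Signs turned in genes near 0 or carried by 1 library: Ddb1 (0.014 with DESeq2, 0.014 with its size factors, 0.10 with library totals, 0.025 with a stricter filter, -0.091 to 0.062 with 1 library left out), Nat10 (0.019 under limma-voom, 0.026 with library totals, 0.045 with counts divided by the most frequent count, -0.35 to 0.35 with 1 library left out), Xpc (-2.14 to 1.26) and Msh6 (-0.20 to 0.33). With the replicate number as a block, 38 genes and 0 members passed. Deviations of same-numbered libraries correlated at -0.02, -0.00 and -0.01, and those of differently numbered ones at -0.02 to 0.03. No pairing by number was seen, nor did every library correlate best with its own number. At counts this low, correlations near 0 cannot exclude a shared culture or day. Low counts limit most members: 28 of 55 had 10 or more counts in all 6 libraries.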
